A study of Homo sapiens with 8 samples.

Results

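The HOX cluster genes are the homeobox genes that lie in 4 tight groups in the human genome, HOXA, HOXB, HOXC and HOXD. Their expression was examined in hCMEC/D3. This is an established human cell line, immortalised from endothelial cells of small brain vessels, with which the blood-brain barrier is studied in culture. The members were taken by symbol, as HOXA to HOXD followed by a number, and 39 of the 23346 genes in the deposited table met this rule. There were 11 genes in HOXA, 10 in HOXB, 9 in HOXC and 9 in HOXD. Polyadenylated RNA was sequenced from 8 replicates, which formed 1 group. The labels named no treatment or genotype, and conditions could therefore not be compared. All libraries came from this 1 line, and nothing in the labels said whether the replicates were separate cultures. The spread between them may therefore be technical.

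HOX genes encode transcription factors that tell cells along the body axis where they are. Within a cluster the genes are ordered as they are used, with low paralog numbers active towards the head and high numbers towards the tail and the ends of the limbs. Adult cells of the connective tissue and of blood vessels often keep the HOX genes of the region they came from. In the embryo, the forebrain and midbrain form in front of the HOX domain, whose front edge lies in the hindbrain. The line was derived from vessels of the temporal lobe, a part of the forebrain.

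The 4 clusters were close to silent in every library. Of the 39 HOX genes, 0 were detected, defined as at least 1 CPM (counts-per-million, scaled to library size by the TMM method) in all 8 libraries, whereas 51.3% of all listed genes passed that level. The highest HOX value in any library was 0.402 CPM. All 39 genes together received 192 read pairs, out of 311533107 read pairs assigned to genes in the 8 libraries. All deposited counts were even, so 2 counts were taken as 1 read pair. The summed level of the 39 genes was 0.603 ± 0.202 CPM (SD, n = 8), and ranged from 0.386 to 0.877 CPM.

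Many members had no reads at all. In all 8 libraries, 11 of the 39 HOX genes (28.2%) had no read pair, against 11.9% of all listed genes. A further 8 had a read pair in exactly 1 library, and 1 gene, HOXD1, had at least 1 read pair in every library. Of the 312 values given by 39 genes and 8 libraries, 227 (72.8%) were 0 and 49 were a single read pair. With 3 or fewer read pairs in each library as the limit, 32 of the 39 genes (82.1%) stayed within it, against 25.2% of all listed genes. A library held 34694272 to 45102622 read pairs. At that depth 1 read pair equalled 0.0222 to 0.0293 CPM, and the upper limit left by a count of 0, taken as 3 read pairs, was 0.0665 to 0.0880 CPM. The median HOX gene had a mean of 0.00573 CPM, against 0.0304 CPM for the median of the 11366 undetected genes and 37.7 CPM for the median detected gene. The intervals and limits given here cover counting error only, since amplified reads are not independent molecules.

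**Figure D1:**
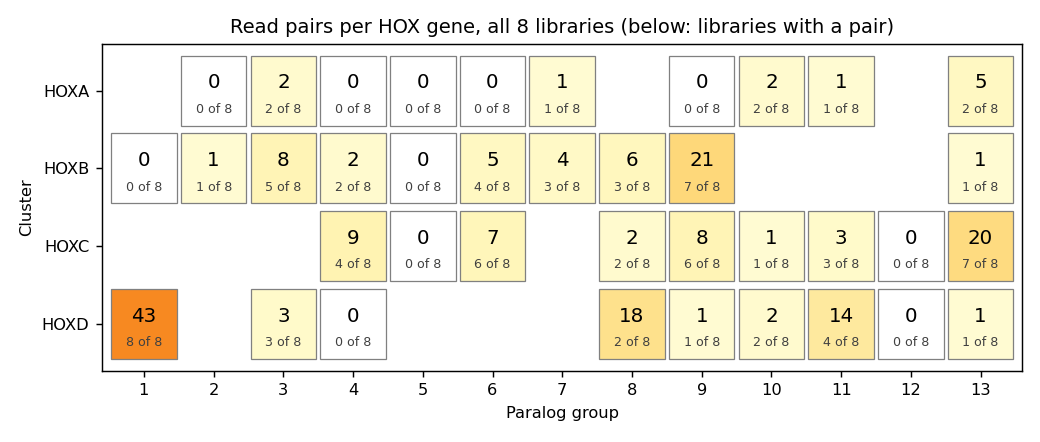
Read pairs summed over the 8 libraries for the HOX genes reported one by one, with clusters as rows and paralog groups as columns; the small figures give the number of libraries with a read pair. Places without a box hold no gene that is reported singly, white boxes mark the 11 genes at 0, and HOXD1 stands highest with 43 read pairs.

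The sequences in front of 3 genes are shown because the results turn on these members: HOXD1, the member with the highest level, HOXD8, which was read in replicate 8 almost alone, and HOXA4, which had no read pair anywhere. These were chosen after their values were seen. Each is given 5′ to 3′ on the strand of the gene, with CpG dinucleotides in capitals, and ends at the base before the start of the gene in the deposited table. They were taken from RefSeq (build GRCh38.p14) and placed in GRCh37 by exact match, at chr2:177053146-177053306 (plus strand) for HOXD1, chr2:176994183-176994421 (plus strand) for HOXD8 and chr7:27170400-27170626 (minus strand) for HOXA4.
HOXD1: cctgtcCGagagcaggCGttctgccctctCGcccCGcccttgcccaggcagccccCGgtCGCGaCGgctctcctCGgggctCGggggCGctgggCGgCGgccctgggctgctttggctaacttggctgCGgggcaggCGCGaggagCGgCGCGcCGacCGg
HOXD8: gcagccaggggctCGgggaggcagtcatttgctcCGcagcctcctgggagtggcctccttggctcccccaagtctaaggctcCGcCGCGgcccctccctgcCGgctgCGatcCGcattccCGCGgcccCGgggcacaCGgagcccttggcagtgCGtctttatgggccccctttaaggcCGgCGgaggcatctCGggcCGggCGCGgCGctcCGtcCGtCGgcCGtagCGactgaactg
HOXA4: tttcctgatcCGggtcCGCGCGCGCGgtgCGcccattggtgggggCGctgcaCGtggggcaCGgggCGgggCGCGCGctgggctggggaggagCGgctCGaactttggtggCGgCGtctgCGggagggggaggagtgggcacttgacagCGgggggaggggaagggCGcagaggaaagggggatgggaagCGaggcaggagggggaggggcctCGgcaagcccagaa

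The HOXD1 stretch held 21 CpGs in 161 bases, the HOXD8 stretch 25 in 239 and the HOXA4 stretch 23 in 227. Their GC contents were 77.6%, 72.0% and 73.6%. The stretch in front of HOXA4, a gene at 0, thus held CpGs about as densely as that of HOXD8, and less densely than that of HOXD1. The promoter table held 20 of the 39 HOX genes (51.3%), which is too few, so no comparison over the whole family was made.

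HOXA, on chromosome 7 (GRCh37, 27132614 to 27239725, minus strand, 107 kb), was the lowest cluster, with 12 read pairs over 8 libraries for 11 genes. Its summed level was 0.0383 ± 0.0360 CPM (SD, n = 8), from 0 in replicate 7 to 0.118 CPM in replicate 8. HOXA2, which patterns the second pharyngeal arch, HOXA4, HOXA5, which is needed for lung development, HOXA6 and HOXA9, a regulator of blood and endothelial progenitors, had 0 read pairs in every library. HOXA7 and HOXA11, a gene of limb and uterus development, had 1 read pair each. HOXA3 and HOXA10 had 2 each, and each of those pairs came from a different library. HOXA13, which shapes the digits and the urogenital tract, had 1 read pair in replicate 1 and 4 in replicate 8.

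HOXB, on chromosome 17 (46606807 to 46806111, minus strand, 199 kb), had 48 read pairs for 10 genes and a summed level of 0.150 ± 0.0643 CPM (SD, n = 8). HOXB1, a gene of hindbrain patterning, and HOXB5 were at 0 in all libraries. HOXB2 and HOXB13 had 1 read pair each and HOXB4, known for its action in blood stem cells, had 2. HOXB3, which has been linked to vessel growth, had 8 read pairs in 5 libraries. HOXB6, HOXB7 and HOXB8 had 5, 4 and 6. HOXB9, a gene of thoracic skeletal patterning, held 21 of the 48.

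The HOXC cluster lies on chromosome 12 (54332576 to 54449814, plus strand, 117 kb) and had 50 read pairs for 9 genes. Its summed level was 0.158 ± 0.0841 CPM (SD, n = 8). HOXC5 and HOXC12 were at 0 throughout. HOXC10 had 1 read pair, HOXC8 had 2 and HOXC11 had 3. HOXC4, HOXC6 and HOXC9 had 9, 7 and 8, spread over 4, 6 and 6 libraries. HOXC13, a regulator of hair keratin genes, had 20.

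The HOXD cluster lies on chromosome 2 (176957532 to 177055635, plus strand, 98.1 kb) and was the highest cluster, with 82 read pairs, or 42.7% of all HOX read pairs, for 9 genes. Its summed level was 0.257 ± 0.112 CPM (SD, n = 8). HOXD4 and HOXD12 were at 0 in all libraries. HOXD9 and HOXD13, a gene of digit formation, had 1 read pair each, HOXD10, described as a brake on vessel growth, had 2, and HOXD3, described as a promoter of it, had 3. HOXD1, HOXD8 and HOXD11 held 43, 18 and 14. Even this cluster stayed at or below 0.473 CPM in all libraries, and its genes together did not reach the level set for detecting a single gene.

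Read pairs were spread over the anterior, central and posterior paralog groups. The 8 anterior genes (groups 1 to 3) had 58 read pairs, 43 of them from HOXD1. The 15 central genes (groups 4 to 8) had 54 and the 16 posterior genes (groups 9 to 13) had 80. Within the central genes 6 were at 0, against 2 anterior and 3 posterior genes. Paralog group 5 (3 genes) and paralog group 12 (2 genes) had 0 read pairs in any library. The 5 highest genes, HOXD1, HOXB9, HOXC13, HOXD8 and HOXD11, came from 3 clusters and 5 paralog groups, and held 116 of the 192 read pairs (60.4%).

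HOXD1 (177053307 to 177055635, 2 exons) had 2, 5, 8, 4, 6, 4, 11 and 3 read pairs in replicates 1 to 8. Its level was 0.137 ± 0.0710 CPM (SD, n = 8), from 0.0587 to 0.268 CPM, or 0.0726 ± 0.0376 RPKM, which is CPM per kilobase of transcript. In its highest library, the exact 95% Poisson interval on 11 read pairs was 5.49 to 19.7. It was present throughout, at a level far below 1 CPM. HOXD1 overlaps the antisense gene HOXD-AS1, which had 12 read pairs, and the library kit does not mark strand, so reads from the overlap cannot be told apart.

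HOXB9 (46698519 to 46703835, 2 exons) had 0, 3, 3, 2, 6, 1, 4 and 2 read pairs in replicates 1 to 8, or 0.0661 ± 0.0469 CPM (SD, n = 8). Replicate 5 was highest and replicate 1 had none. HOXC13 (54332576 to 54340328, 2 exons) had 2, 4, 0, 1, 3, 2, 7 and 1 read pairs, or 0.0628 ± 0.0525 CPM. Replicate 7 was highest and replicate 3 had none. For both genes the mean lay below the level of 3 read pairs.

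HOXD8 (176994422 to 176997423, 2 exons) had nearly all of its reads in 1 library. It had 17 read pairs in replicate 8, 1 in replicate 7 and 0 in replicates 1 to 6. The level in replicate 8 was 0.402 CPM, and the exact 95% Poisson interval on its 17 read pairs was 9.90 to 27.2. The same library had 0 read pairs for its neighbours HOXD9, HOXD10 and HOXD4, so the rest of the cluster did not follow. HOXD11 (176972084 to 176974316, 2 exons) had 5, 6, 2, 0, 1, 0, 0 and 0 read pairs in replicates 1 to 8. Replicates 1 and 2 were highest, and 4 libraries had none.

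**Figure D2:**
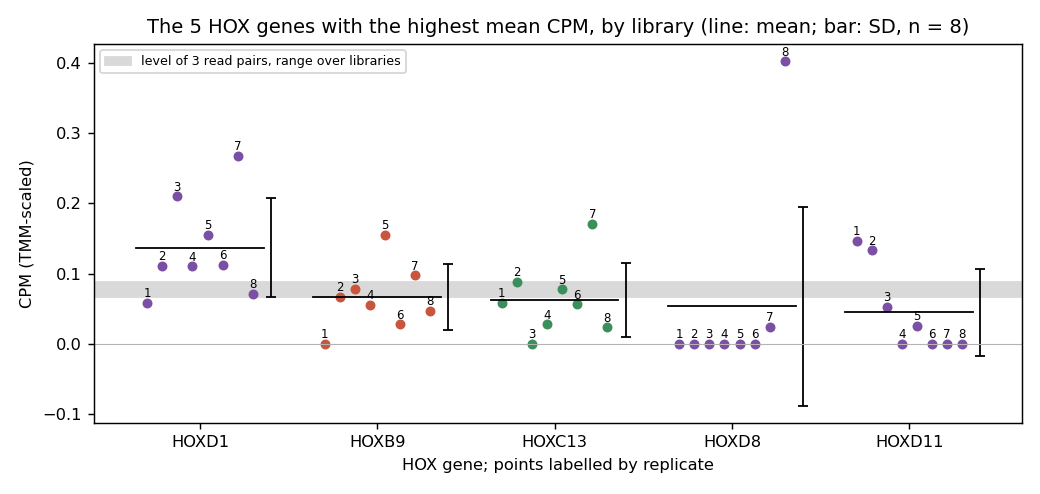
TMM-scaled CPM of the 5 HOX genes with the highest mean, with 1 point per library labelled by replicate, the mean as a line and the SD as a bar; the grey band is the level of 3 read pairs. HOXD1 is above 0 in all 8 libraries, and HOXD8 reaches 0.402 CPM in replicate 8 against at most 0.0244 CPM elsewhere.

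Whether HOX genes varied more between libraries than genes of like abundance was asked with the goodness-of-fit test in edgeR, which sets each gene's spread beside the dispersion trend. At the detection level the test covered 11980 genes, of which 558 (4.66%) passed an adjusted p-value of 0.05. It covered 0 HOX genes, so 0 passed at an adjusted or an unadjusted threshold. With every gene that had a count, 28 HOX genes entered and 2 passed, HOXD8 (edgeR adjusted p = 1.05e-05) and HOXD11 (edgeR adjusted p = 0.0457), against 671 of 20571 genes (3.26%). With the counts halved to read pairs, HOXD8 passed (edgeR adjusted p = 1.24e-05) and HOXD11 did not (edgeR adjusted p = 0.109).

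Replicates 1 to 8 had 15, 32, 20, 14, 24, 14, 36 and 37 HOX read pairs, or 0.440, 0.709, 0.524, 0.386, 0.622, 0.392, 0.877 and 0.875 CPM. The 95% Wilson interval was 0.230 to 0.647 CPM in replicate 4 and 0.633 to 1.21 CPM in replicate 7, the lowest and the highest library. Replicates 2, 7 and 8 had the 3 highest sums. They also had the most read pairs, at least 41006913 against at most 38198591 in the others. Their level of a gene fell with transcript length relative to the other libraries (slopes of -0.22, -0.10 and -0.33 log2 per doubling of length, against 0.08 to 0.14). The part of depth and of this length trend in the HOX sums was not tested. Without HOXD8, replicate 8 had 20 HOX read pairs and 0.473 CPM, which lay within the range of replicates 1 and 3 to 6.

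How reads were assigned could affect members that share sequence with another listed gene. Among the 39 genes, 28 overlapped no other listed gene, apart from a microRNA whose listed span joins copies at separate sites. Of these 28 genes 6 were at 0 in all libraries, and they held 125 of the 192 read pairs, or 0.390 CPM per library on average. The other 11 overlapped an antisense RNA, a readthrough gene or each other, and 5 of them were at 0. HOXA9 lies inside the listed readthrough gene HOXA10-HOXA9, which also had 0 counts. HOXC4, HOXC5 and HOXC6 share a listed start. The levels of these genes are therefore uncertain. Genes without overlap, such as HOXA2, HOXA4 and HOXD4, were also at 0.

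The nearest detected genes on either side of each cluster marked the ends of a silent stretch, in which no gene was detected. Many other genes nearby were undetected too. Of the other listed genes in or within 500 kb of a cluster, 2 of 10 were detected for HOXA and 11 of 24 for HOXB. For HOXC 14 of 30 were detected and for HOXD 2 of 8, beside 51.3% of all listed genes. The silent stretch of HOXA ran for 661 kb, from SKAP2 (26.1 ± 6.59 CPM, SD, n = 8), an adaptor of SRC family signalling, to HIBADH (38.2 ± 3.19 CPM), a mitochondrial enzyme of valine breakdown. It held 18 listed genes with 15 read pairs in all. The HOXB stretch ran for 708 kb from SNX11 (34.0 ± 3.41 CPM) to CALCOCO2 (119 ± 13.1 CPM), an autophagy receptor, and held 19 genes with 88 read pairs. The stretch with HOXC ran for 453 kb from CALCOCO1 (50.4 ± 12.7 CPM) to SMUG1 (13.7 ± 3.89 CPM), a DNA repair glycosylase. It held 16 genes with 168 read pairs, 97 of them from the noncoding gene FLJ12825. The HOXD stretch was the shortest, at 267 kb from KIAA1715 (31.7 ± 10.9 CPM) to MTX2 (25.2 ± 2.91 CPM), a mitochondrial import protein, with 13 genes and 97 read pairs. Over these flanking genes and all libraries the lowest value was 10.9 CPM, for SMUG1. Each flanking gene was chosen as the nearest one detected, so its level above the HOX genes follows from that choice.

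Few of the unbroken runs of undetected genes in the table were as long as these. Each run was counted once whatever its number of genes, and the HOX runs were among those counted. Among 4456 such runs, 38 (0.853%) held at least the 18 genes of the HOXA run, and 31 (0.696%) held at least the 19 of the HOXB run. For HOXC and HOXD the shares were 1.03% and 1.37%. These are descriptions of gene order and not tests.

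**Figure D3:**
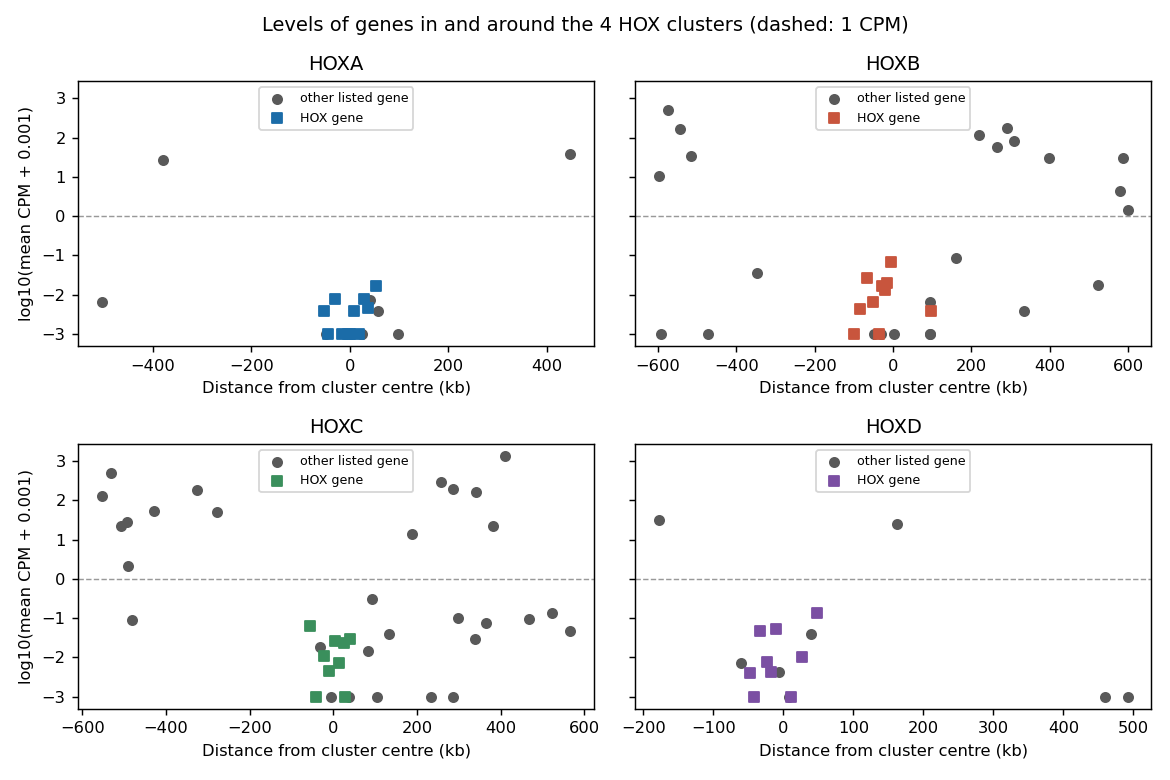
Mean level over 8 libraries, as log10(CPM + 0.001), of listed genes that lie within 500 kb of each HOX cluster, against their distance in kb from the centre of the cluster. HOX genes (squares) are all below 1 CPM (dashed line), as are many of the other listed genes. The nearest detected genes on either side, SKAP2, HIBADH, SNX11, CALCOCO2, CALCOCO1, SMUG1, KIAA1715 and MTX2, are at 13.7 to 119 CPM.

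Noncoding and other homeobox genes inside or at the edge of the clusters were silent as well. Of 17 such listed genes 0 were detected, beside 51.3% of all listed genes. In all libraries 10 of the 17 were at 0, beside 11.9% of all listed genes. These 10 were EVX1, HOTAIRM1, HOXA-AS3, HOXB-AS3 and the microRNA genes of the list. The highest of the 17 per length were HOXB-AS5 (0.00989 RPKM), HOXD-AS1 (0.00946 RPKM), HOTAIR (0.00704 RPKM), a long noncoding RNA of the HOXC cluster, and HOXA-AS5 (0.00453 RPKM). These values rest on few read pairs: 12 for HOXD-AS1 and 5 for HOTAIR. HOXB-AS5 had 2, all in replicate 2, and HOXA-AS5 had 2, all in replicate 5. HOTTIP, transcribed from the end of HOXA, had 1 read pair. The microRNA genes MIR10A, MIR10B, MIR196A1, MIR196A2, MIR196B and MIR615 had no counts, nor did MIR3185, which lies inside HOXB and was not in the list of 17. Mature microRNAs are not polyadenylated, so these libraries do not measure them, and the zeros concern longer transcripts over those sites. The mature forms of the miR-196 genes, which sit in HOXB, HOXC and HOXA and target HOX messages, are shown because they share a seed (bases 2 to 8, in capitals).
miR-196a-5p: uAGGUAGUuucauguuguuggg
miR-196b-5p: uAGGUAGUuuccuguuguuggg

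The ParaHox and CDX genes, close relatives of the HOX family, were also undetected (0 of 6, beside 51.3% of all listed genes). In all libraries 1 of the 6 was at 0, beside 11.9% of all listed genes. GSX2 was the highest at 0.112 RPKM, with 0.188 ± 0.0388 CPM (SD, n = 8) and reads in every library. CDX1, PDX1 and CDX2 had 0.0112, 0.00376 and 0.00302 RPKM. CDX proteins are activators of HOX genes in the posterior embryo.

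The DNA-binding partners of HOX proteins were examined next. PBX, MEIS and PKNOX proteins of the TALE class bind DNA together with HOX proteins and also have other partners. Of 9 genes, 4 were detected (44.4%), also near the share of all listed genes. PBX2 had 23.6 ± 4.98 RPKM (SD, n = 8; 63.2 to 104 CPM), PBX3 had 9.92 ± 0.611 RPKM (25.9 to 31.5 CPM) and PKNOX1 had 4.30 RPKM. MEIS3 (0.482 RPKM) and MEIS1 (0.335 RPKM) fell short in some libraries, with lowest values of 0.449 and 0.968 CPM, and MEIS2, PKNOX2 and PBX4 had means under 0.5 CPM. None of the 9 passed the edgeR variation test.

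Genes of the Polycomb complexes, which keep HOX clusters silent in cells outside their domain, were expressed. Of 17 genes 16 were detected (94.1%), beside 51.3% of all listed genes, and their part in the low HOX levels was not tested. The highest per length were PHC2 (38.5 ± 7.49 RPKM, SD, n = 8), SUZ12 (28.0 ± 6.18 RPKM), RING1 (26.3 RPKM) and EZH2 (23.8 RPKM), the methyltransferase of the H3K27 mark. BMI1 was below the level in 1 library, with 3.90 ± 1.92 CPM and a lowest value of 0.923 CPM in replicate 8. It overlaps the readthrough gene COMMD3-BMI1. A further list held genes of the Trithorax side, the H3K27 demethylases and CTCF, an insulator protein that binds within HOX clusters. All 9 were detected, beside the same 51.3% of all listed genes. They were led by WDR5 (30.8 RPKM), ASH2L (26.4 RPKM), MEN1 (20.7 RPKM) and CTCF (20.5 RPKM). The 2 demethylases, KDM6A and KDM6B, had 59.4 ± 16.8 and 14.4 ± 2.00 CPM.

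KMT2A, the H3K4 methyltransferase that maintains HOX expression and is listed under its older symbol MLL, had a spread above the trend (edgeR adjusted p = 2.58e-04). MLL had 212, 65.1, 226, 209, 180, 197, 89.8 and 52.9 CPM in replicates 1 to 8. The 3 low libraries were replicates 2, 7 and 8, those with the negative slopes on transcript length given above. MLL is a long transcript, and the part of that trend was not tested.

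Retinoic acid activates the front HOX genes in the embryo, and 9 of 16 genes of its pathway were detected (56.2%), a share near the 51.3% of all listed genes. The receptor genes RXRB, RARA and RXRA had 19.8, 14.9 and 13.9 RPKM, and CRABP2, which carries retinoic acid in the cell, had 8.39 RPKM. RARB, itself a retinoic acid target, and the degrading enzymes CYP26A1, CYP26B1 and CYP26C1 had 0.154, 0.245, 0.264 and 0.373 CPM. The synthesising enzyme gene ALDH1A2 had 0.163 CPM, whereas ALDH1A3 had 23.2 ± 5.33 CPM. Of the 9 tested, 2 varied beyond the trend, where 4.66% of all detected genes did. Both were highest in replicates 2 and 8, the libraries with the most negative slopes on transcript length, and the part of that trend was not tested. DHRS3, which turns retinal back to retinol, had 26.1 and 29.3 CPM there and 5.57 to 10.7 CPM elsewhere (edgeR adjusted p = 1.01e-04). ALDH1A1 had 6.96 and 9.20 CPM there and 2.67 to 4.00 CPM elsewhere (edgeR adjusted p = 0.0293).

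Regional factors of the brain in front of the HOX domain were mostly undetected too. Of 11 forebrain and midbrain factors 1 was detected, PAX6, at 1.59 ± 0.348 CPM (SD, n = 8). OTX1 and DMBX1 had 0.522 and 0.641 CPM, and OTX2, EN1 and EMX2 had 0.00948, 0.00648 and 0 CPM. Of 3 hindbrain factors 0 were detected, with EGR2 at 0.539 CPM and GBX2 at 0.152 CPM. Thus neither list held more than 1 gene above the level, beside 51.3% of all genes.

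**Figure D4:**
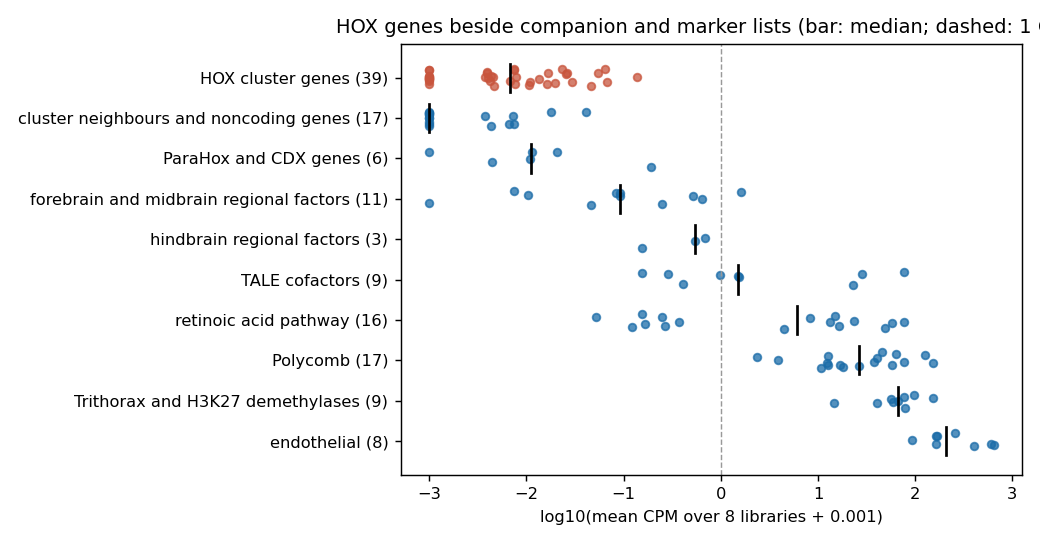
Mean level over 8 libraries, as log10(CPM + 0.001), of the HOX genes and of 9 companion and marker lists, with 1 point per gene, the number of genes in brackets and the list median as a bar. All HOX genes lie left of 1 CPM (dashed), while all 9 genes of the Trithorax list and all 8 endothelial genes lie right of it.

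The labelled cell type was checked against its markers. All 8 endothelial genes were detected, beside 51.3% of all listed genes. CDH5 had 649 ± 152 CPM (SD, n = 8), and the summed level of the 8 genes ranged from 1822 to 3297 CPM. Among markers of other cells, none passed the level among 5 astrocyte, 4 microglia and 3 lymphatic endothelial genes. Neuron and fibroblast markers had 2 of 5 genes detected in each list, mural cells had 3 of 6, and oligodendrocytes had 1 of 4. These counts also stand beside the 51.3% of all listed genes. The detected genes of these other cells were TUBB3, SYT1, MBP, RGS5, PDGFRB, ACTA2, COL1A1 and COL1A2. COL1A2 and COL1A1, collagen genes of the fibroblast list, had 134 and 33.5 CPM, while LUM and DCN of the same list had 0.00999 and 0.00554 CPM. In the mural list RGS5 had 14.4 CPM, PDGFRB 9.57 CPM and ACTA2 4.74 CPM. TUBB3 of the neuron list had 53.7 CPM and MBP of the oligodendrocyte list 35.7 CPM, and the lymphatic factor PROX1 had 0.0159 CPM.

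Other homeobox genes of the ANTP class, to which HOX genes belong, were counted in a list made after the HOX values were seen. The list shares genes with the ParaHox, forebrain, hindbrain and cluster neighbour lists. Of its 60 listed genes, 4 (6.67%) were detected, beside 51.3% of all listed genes. In all libraries 5 of the 60 were at 0, beside 28.2% of the HOX genes and 11.9% of all listed genes. HHEX, a homeobox gene of early blood and vessel development, stood out with 85.6 ± 7.80 CPM (SD, n = 8). MSX1 and HLX had 2.51 and 2.29 CPM. The median of this list was 0.0183 CPM, beside 0.00573 CPM for the HOX genes and 1.97 CPM for all listed genes.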

How the data were processed

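RNA sequencing of 8 hCMEC/D3 replicates was used. The authors deposited raw counts per gene and CQN-normalised values, per the file headers. The deposited CQN values have the range of log2 values, and no HOX gene had one. CASAVA 1.9, TopHat2 2.0.6, HTSeq and build hg19 are named in the submitters' processing notes. The annotation, strand setting and counting mode are not given in the sources used here. Table starts count from 0 and are printed from 1. All 16 value columns were matched by replicate number, and 0 others were present.

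CPM used TMM-scaled totals (edgeR 4.0.16, R 4.3.3). RPKM used the canonical transcript in GENCODE lifted to GRCh37, matched for all 39 HOX genes. The variation test was edgeR's goodness of fit on an intercept-only fit of the counts, with Benjamini-Hochberg adjustment over all genes tested. It was tried on simulated counts at the levels of detected genes only. Counts as low as those of HOXD8 and HOXD11 were not simulated. The planned ratio tests of neighbouring and paralogous HOX genes needed detected genes on both sides, and 0 pairs qualified.

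The genes and lists were chosen with earlier results of these data known. Values by library are given for detected members (there were 0), the 3 undetected members with the highest mean CPM and members past a variation test. From each companion list the 4 genes highest in RPKM and any past that test are named. Other genes were named after their values were seen. Some genes are counted in the totals and not reported here by name.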

Additional observations from a re-analysis of the deposited data

Results flagged for a closer look

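HOXD8 stood out in replicate 8, at 0.402 CPM (17 read pairs) against 0.0244 CPM in replicate 7 and 0 in the other 6 libraries. The summed HOXC level stood out in replicate 7, at 0.341 CPM, where HOXC13 had 7 read pairs, HOXC4 had 4 and the other members together 3. In both cases the gap to the next library, as a share of the whole range, was above Dixon's 95% critical value for 8 values. The 5 HOX genes with at least 10 read pairs in all, the 4 cluster sums and the sum of all HOX genes gave 10 such comparisons, and 2 met this limit. Chance meets it in about 5% of groups of normally distributed values, and the rate for counts as sparse as these was not measured.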

How the results depend on the processing

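The count of 0 detected HOX genes held with DESeq2 size factors, plain totals, a mean of 1 CPM, 0.5 CPM or 1 RPKM in all libraries, 10 counts in every library and 1 CPM in any library, and ranged from 0 to 0 when each library was left out. With at least 1 read pair in every library, a setting added after seeing the data, it was 1 (HOXD1). The number of HOX genes varying beyond the trend was 0 with DESeq2 size factors, halved counts, a robust trend and the DESeq2 fitted trend, and 0 to 0 with each library left out, since 0 HOX genes entered. It was 2 with no filter, and 1 with no filter and halved counts, the latter added later. The number of HOX genes without a read pair ranged from 11 to 13 with each library left out. The mean summed HOX level ranged from 0.564 to 0.634 CPM in that way, and was 0.390 CPM over genes that overlap no other, which follows from fewer genes. The ratio tests along clusters and within paralog groups were not run under any setting, as no pair qualified. No paired analysis was possible because the samples form 1 group. Depth limits what can be said: a HOX gene at 0 in 1 library may lie anywhere below 0.0665 to 0.0880 CPM there. For the 11 genes at 0 in all 8 libraries the limit over the libraries together is lower, and it was not calculated.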

Other observations

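Of 23346 listed genes, 5 had at least 10 read pairs in 1 library and at most 1 in each of the others, and 3 of these were highest in replicate 8. METTL24 had 643 read pairs in replicate 8 and 1 elsewhere, and HOXD8 had 17 and 1. LOC649133 had 368 read pairs in replicate 2 and 1 elsewhere, and GRIA3, a glutamate receptor subunit, had 18 in replicate 3 and 0 elsewhere. HMX3, another homeobox gene, reached 1.14 CPM in replicate 8, stayed at or below 0.0587 CPM in the others, and missed that limit through its read pairs in replicate 1. These genes were named after their values were seen.

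EMX2, a forebrain homeobox gene, had 0 read pairs in every library, while its antisense neighbour EMX2OS had 2.27 ± 0.227 CPM (SD, n = 8) and reads in 8 of 8 libraries. The genes overlap and the kit does not mark strand, so reads from the overlap cannot be told apart.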
